A study of Mus musculus with 20 samples.

Results

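Cultured common dendritic cell progenitors (CDP) given TGF-β1 for 24 h were compared with untreated CDP, using 4 of the 20 arrays of a mouse dendritic cell study. The group labelled CDP_24h was CDP treated with TGF-β1 for 24 hours and measured on 2 arrays, and CDP_0h, its control, was untreated CDP, also on 2 arrays. Both came from C57BL/6 bone marrow progenitors amplified in culture, and the labels name no transgene or sorted subset. The sources used here give no dose of TGF-β1, no age of the mice and no count of mice or cultures pooled. No untreated culture kept for 4 to 24 h was analysed here, so TGF-β1 and hours in culture cannot be told apart. The labels do not tell whether the 2 arrays of a time stem from independent cultures or mice, and p-values therefore cover only array-to-array spread, which may be technical. The 4, 8 and 12 h groups of the same series, treated with TGF-β1 for those hours and measured on 2 arrays each, entered the fit for its estimate of the spread and give the time course. The title of the series names its question, whether TGF-β1 speeds dendritic cell differentiation and favours the conventional subset, and what follows describes the late response across genes rather than the regulators and markers of that question.

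TGF-β1 is a secreted cytokine that binds a complex of type I and type II serine/threonine kinase receptors on the cell surface. The receptors phosphorylate SMAD2 and SMAD3, which join SMAD4, enter the nucleus and bind DNA at short GTCTG or CAGAC boxes together with partner factors. In the dendritic lineage TGF-β1 is known for its part in Langerhans cell development and, in many cell types, for slowing proliferation and lowering MYC. CDP are bone marrow cells that carry the receptors Flt3, Csf1r and Kit and give rise to conventional and plasmacytoid dendritic cells.

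The labelled cell type was checked against Flt3 and Csf1r, and the treatment against a known TGF-β target. Flt3, the receptor of the main dendritic cell growth factor, stood at 12.11 and 12.29 at 24 h and 11.18 and 11.10 at 0 h (log2 intensity, as all levels here), and Csf1r, the receptor of macrophage colony-stimulating factor, at 13.54 and 13.17 against 12.55 and 12.34. Both were far above 5, the level below which a value was taken as low, in both groups. Smad7, an inhibitor that the SMAD complex itself induces, was at 8.88 and 7.95 at 24 h and 6.74 and 5.77 at 0 h, and the groups did not overlap. As 62.6% of all genes tested had groups that did not overlap, this is a weak check of the treatment.

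Control transcripts gave less 5′ signal on the first 24 h array. The 3′ probe set of Gapdh exceeded the 5′ one by 2.78 there and by 0.03 on the second 24 h array, against 0.04 and 0.03 on the 0 h arrays. The first 12 h and 4 h arrays were low in the same way, with 2.09 to 2.78 on these 3 arrays and 0.01 to 0.10 on the other 7. A gene was therefore called only where limma's Benjamini-Hochberg adjusted p, over the 12656 genes tested in a fit of all 10 TGF-β1 arrays, was under 0.05 and neither 24 h array overlapped a 0 h array. Groups that do not overlap are part of this rule, so where that is said below of a called gene it restates the rule. By that rule 2436 genes (19.2% of those tested) were called, 1370 higher (10.8%) and 1066 lower (8.42%) at 24 h. Of these, 717 (5.67%) rose and 534 (4.22%) fell at least 2-fold on both 24 h arrays. A fit with replicate as a block called 3793. The 3 arrays of low 5′ signal are all replicate 1.

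Both 24 h arrays moved the same way for most genes. Taken as array pairs that share no array (replicate 1 at 24 h minus replicate 1 at 0 h, and likewise for replicate 2), the sign was the same for 9240 of 12656 genes (73.0%). Across genes, which are not independent replicates, Pearson's r between both sets of differences was 0.82. No gene past the adjusted threshold had overlapping groups (0 of 2436), and in 0 of the 2436 did the 24 h arrays differ from each other by more than the groups did. Among all 12656 genes tested the groups did not overlap in 7925 (62.6%), so separate groups alone show little. The median size of a called difference was 1.18 on the log2 scale, against a median spread of 0.28 between the 24 h arrays for the same genes. Called genes were chosen for a difference that is large against its spread. These medians and the 0 of 2436 thus largely restate the rule and are no separate sign of agreement. The change was larger on the first 24 h array for 1413 called genes (58.0%). Leaving out that array left 1361 calls, and leaving out the second left 1724, whereas leaving out the first or second 0 h array left 988 or 936. Of the 209 genes chosen by the naming rule, 120 kept their call whichever of these 4 arrays was left out, and below the text says so where a gene of that rule did not. Genes named outside the rule, as markers or further list members, were not followed in this way.

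**Figure D1:**
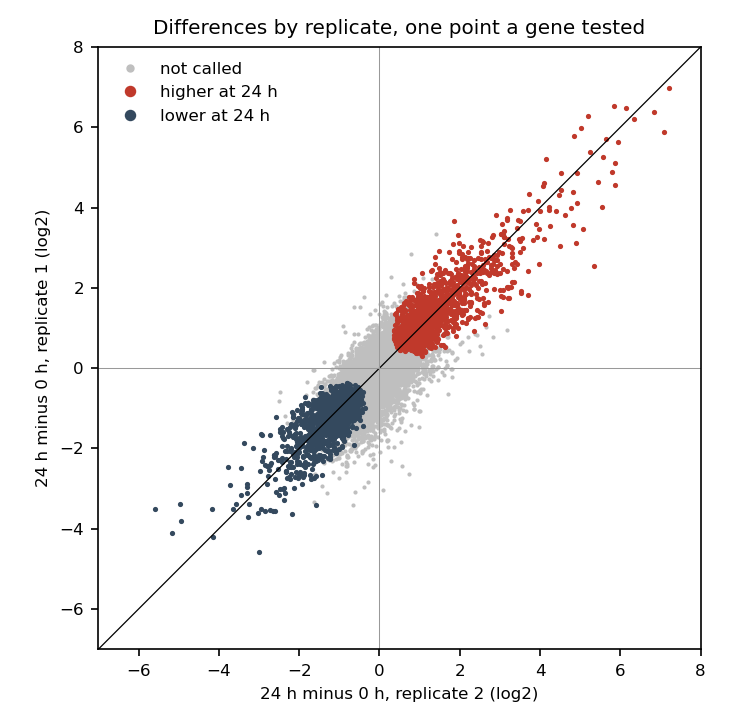
Difference between 24 h and 0 h for each of the 12656 genes tested, in log2 units, with replicate 1 on the vertical axis and replicate 2 on the horizontal axis. Red points are the 1370 genes called higher at 24 h, dark points the 1066 called lower and grey points the rest, and the diagonal marks equal differences in both replicates. Every called gene lies in the quadrant where both differences have the same sign, which follows from the rule for a call.

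The 3 largest increases outside the regulators and standard markers were those of Gna14, Hepacam2 and Capn3. Gna14, an α subunit of the Gq class of heterotrimeric G proteins, stood at 10.25 and 10.74 on the 24 h arrays and at 3.28 and 3.53 on the 0 h arrays. The groups were far apart, with both untreated arrays under the level of 5, and the gene was at least 45.1-fold higher (difference 7.09, SE 0.26, limma adjusted p = 1.50e-05). Hepacam2, a cell adhesion molecule of the immunoglobulin superfamily, reached 9.65 and 10.48 against 3.77 and 3.39 and was at least 33.5-fold higher (difference 6.49, SE 0.32, limma adjusted p = 4.63e-05). Capn3, a calcium-dependent protease best known from skeletal muscle, was at 11.50 and 12.00 against 5.29 and 5.66, a 77.3-fold difference (SE 0.33 on the log2 scale, limma adjusted p = 5.50e-05). All 3 were low or near 5 on both untreated arrays and high on both treated ones. In bulk RNA of this kind, more cells that express a gene and more RNA per cell cannot be told apart. Their promoters are printed because they belong to the genes that moved most, from 250 bases before to 50 bases after the RefSeq start (build GRCm38.p6, each 5′ to 3′ on the strand of the gene), with the GTCTG or CAGAC boxes known from SMAD binding in capitals. Gna14 lies at chr19:16435417-16435716 on the plus strand and has 1 box, Hepacam2 at chr6:3494449-3494748 on the minus strand with 1, and Capn3 at chr2:120463343-120463642 on the plus strand with 2.
Gna14: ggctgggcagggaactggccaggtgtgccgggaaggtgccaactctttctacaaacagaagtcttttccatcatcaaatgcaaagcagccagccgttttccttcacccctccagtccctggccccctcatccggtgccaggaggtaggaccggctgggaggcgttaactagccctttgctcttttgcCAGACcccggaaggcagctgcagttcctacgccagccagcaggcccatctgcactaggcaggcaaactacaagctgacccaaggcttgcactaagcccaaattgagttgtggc
Hepacam2: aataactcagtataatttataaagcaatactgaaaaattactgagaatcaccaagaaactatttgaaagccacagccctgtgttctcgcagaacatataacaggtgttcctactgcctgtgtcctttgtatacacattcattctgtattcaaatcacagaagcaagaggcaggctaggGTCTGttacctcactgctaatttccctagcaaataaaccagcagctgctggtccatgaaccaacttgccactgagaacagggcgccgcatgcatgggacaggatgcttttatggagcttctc
Capn3: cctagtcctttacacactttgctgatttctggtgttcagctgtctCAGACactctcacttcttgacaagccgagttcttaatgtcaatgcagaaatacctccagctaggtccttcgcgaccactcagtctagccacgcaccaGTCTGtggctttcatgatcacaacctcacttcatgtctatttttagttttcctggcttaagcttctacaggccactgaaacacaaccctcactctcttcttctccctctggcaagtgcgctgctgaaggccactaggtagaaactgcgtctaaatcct

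On the first promoter RefSeq lists for each gene, such a box, read on either strand, was found in 48.2% of the 1094 higher genes with a promoter, 45.4% of the 885 lower genes, 48.2% of all 10221 tested genes and 49.7% of all 27025 genes that have one. The share among genes that rose was thus that of all genes tested. A match is a description of the letters and no binding site.

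The other 11 of the 14 largest increases were of varied kinds. Chad, a leucine-rich protein of cartilage matrix, stood at 10.75 and 11.23 at 24 h and 5.12 and 5.28 at 0 h (55.3-fold higher). Dsp, the desmoplakin that anchors intermediate filaments at desmosomes, was at 9.33 and 9.24 against 3.63 and 3.60 (at least 19.5-fold) and had the smallest adjusted p of the 14, 4.93e-06 by limma. Cttn, the actin-binding protein cortactin, was at 9.66 and 9.06 against 3.68 and 4.04 (at least 20.6-fold). Each of these 3 lay near or under 5 without treatment.

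Several of them act in membrane traffic and calcium or lipid signalling. Myrip, which links Rab27 vesicles to myosin motors, stood at 10.54 and 11.06 against 5.44 and 5.20 (44.8-fold), and Rilpl1, a relative of the Rab7 effector RILP, at 11.02 and 10.43 against 5.23 and 5.58 (39.9-fold). Prkcb, the calcium-activated protein kinase C β, stood at 11.87 and 12.20 at 24 h against 6.98 and 6.41 at 0 h (40.5-fold). Camk2n1, an inhibitor of calcium/calmodulin kinase II, stood at 9.87 and 10.32 against 4.48 and 5.09 (39.6-fold), and Aif1, the calcium-binding protein of macrophages also called Iba1, at 10.12 and 10.90 against 5.55 and 5.03 (37.3-fold). For all 5 the lower 24 h array was far above the higher 0 h array. St8sia6, an α-2,8-sialyltransferase, was at least 14.9-fold higher, Qpct, which cyclizes N-terminal glutamine, at least 19.1-fold, and Lpar3, a receptor for lysophosphatidic acid, at least 13.7-fold. Limma's adjusted p of the 14 genes lay between 4.93e-06 and 4.19e-04.

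**Figure D2:**
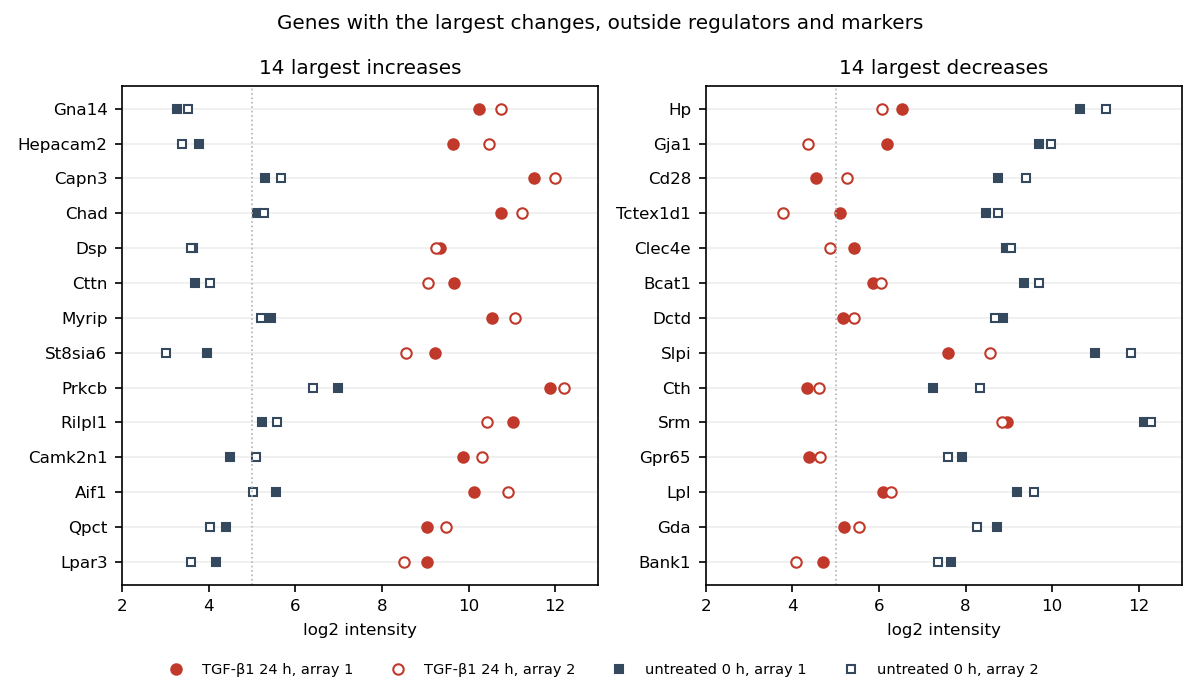
Log2 intensity on each of the 4 arrays for the 14 genes with the largest increase (left) and the 14 with the largest decrease (right), regulators and standard markers left out. Red circles are the TGF-β1 24 h arrays and dark squares the untreated 0 h arrays, filled for array 1 and open for array 2, and the dotted line marks the level of 5. In every row the circles and the squares do not overlap, as the rule for a call requires. Gja1 and Tctex1d1 have the widest gaps between their 24 h arrays.

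Among the decreases, Hp led. Hp encodes haptoglobin, which binds free haemoglobin and is stored in neutrophil granules, and stood at 6.53 and 6.07 at 24 h against 10.64 and 11.24 at 0 h, 24.9-fold lower (difference -4.64, SE 0.48, limma adjusted p = 6.87e-04). Gja1, the gap junction protein connexin 43, was at 6.19 and 4.36 against 9.70 and 9.96, 23.5-fold lower (difference -4.56, SE 0.67, limma adjusted p = 0.00310). Its 24 h arrays lay far from each other, but both were well below the untreated ones. Tctex1d1, of a dynein light chain family, was at 5.09 and 3.78 against 8.47 and 8.74 and likewise spread at 24 h (18-fold lower, SE 0.43 on the log2 scale, limma adjusted p = 6.40e-04). The promoters of Gja1 and Tctex1d1 are printed because they fell most among the genes with a promoter in the RefSeq table (GRCm38.p6, strand and boxes as above). Gja1 lies at chr10:56377050-56377349 on the plus strand and has no box, and Tctex1d1 at chr4:102978453-102978752 on the plus strand with 1.
Gja1: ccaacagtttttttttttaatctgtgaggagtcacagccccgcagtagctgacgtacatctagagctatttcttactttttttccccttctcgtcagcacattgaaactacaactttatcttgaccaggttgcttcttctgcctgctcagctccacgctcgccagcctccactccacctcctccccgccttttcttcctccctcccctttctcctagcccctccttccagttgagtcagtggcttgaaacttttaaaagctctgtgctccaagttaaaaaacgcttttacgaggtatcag
Tctex1d1: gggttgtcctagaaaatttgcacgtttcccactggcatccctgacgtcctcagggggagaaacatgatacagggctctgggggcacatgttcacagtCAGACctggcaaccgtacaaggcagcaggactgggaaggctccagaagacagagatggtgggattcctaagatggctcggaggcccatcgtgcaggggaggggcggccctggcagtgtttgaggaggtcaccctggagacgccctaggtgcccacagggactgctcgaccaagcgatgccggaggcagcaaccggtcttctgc

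Of the other genes among the 14 largest decreases, several are receptors or signalling proteins of immune cells. Cd28, the costimulatory receptor known from T cells, stood at 4.54 and 5.27 at 24 h and 8.75 and 9.40 at 0 h (18-fold lower). Clec4e, the lectin Mincle that binds mycobacterial glycolipids, was at 5.43 and 4.87 against 8.94 and 9.05 (14.4-fold lower). Bank1, a scaffold protein known from B cell receptor signalling, was at 4.70 and 4.08 against 7.67 and 7.37, and Gpr65, a proton-sensing receptor, at 4.39 and 4.64 against 7.91 and 7.59. The arrays of both groups were apart for each, and all 4 came down to the low level of 5 or near it.

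Enzymes of amino acid, nucleotide and lipid metabolism made up most of the rest. Bcat1, which transfers amino groups from branched-chain amino acids, stood at 5.85 and 6.04 at 24 h against 9.36 and 9.69 at 0 h (11.9-fold lower). Dctd, the dCMP deaminase, was at 5.17 and 5.42 against 8.87 and 8.69 (11.2-fold lower), and Cth, which makes cysteine from cystathionine, at 4.33 and 4.62 against 7.24 and 8.34 (at least 6.92-fold lower). Gda, the guanine deaminase, was 8.75-fold lower, and Lpl, the lipoprotein lipase, 9.21-fold lower. Srm, the spermidine synthase, was high in both groups, at 8.96 and 8.83 against 12.12 and 12.29 (9.91-fold lower). The protease inhibitor Slpi, at 7.61 and 8.57 against 11 and 11.81, lost its call without the first 24 h array (limma adjusted p = 0.0760) or the second 0 h array (0.0977). Limma's adjusted p of the 14 lay between 2.51e-04 and 0.0122.

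The response was then read through 43 lists of genes of known function. They were chosen with earlier results of these data known, so no test was made of a list and its share of called members is given beside that of all genes tested, 10.8% higher and 8.42% lower. The median difference over all tested genes was -7.38e-04, so list medians are read against about 0. Calls depended on the arrays fitted. In 38 of the 43 lists the number called was lower whichever of the 4 arrays was left out, and in 38 its lowest value was under the count given by over 1.5 times. Leaving out the 3 arrays of low 5′ signal, which include the first 24 h array, leaves 1 array each at 4, 12 and 24 h. The spread then comes from the 0 h and 8 h arrays alone. Their replicates differed least (SD over genes 0.15 and 0.20, against 0.31 to 0.51 at the other times). Counts given below for that setting carry this limit and do not show that both 24 h arrays agree. With a covariate for 5′ signal 39 lists had more calls and none fewer. With each array centred on its median the median over all genes was -0.03, and with quantile normalization -0.0093.

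**Figure D3:**
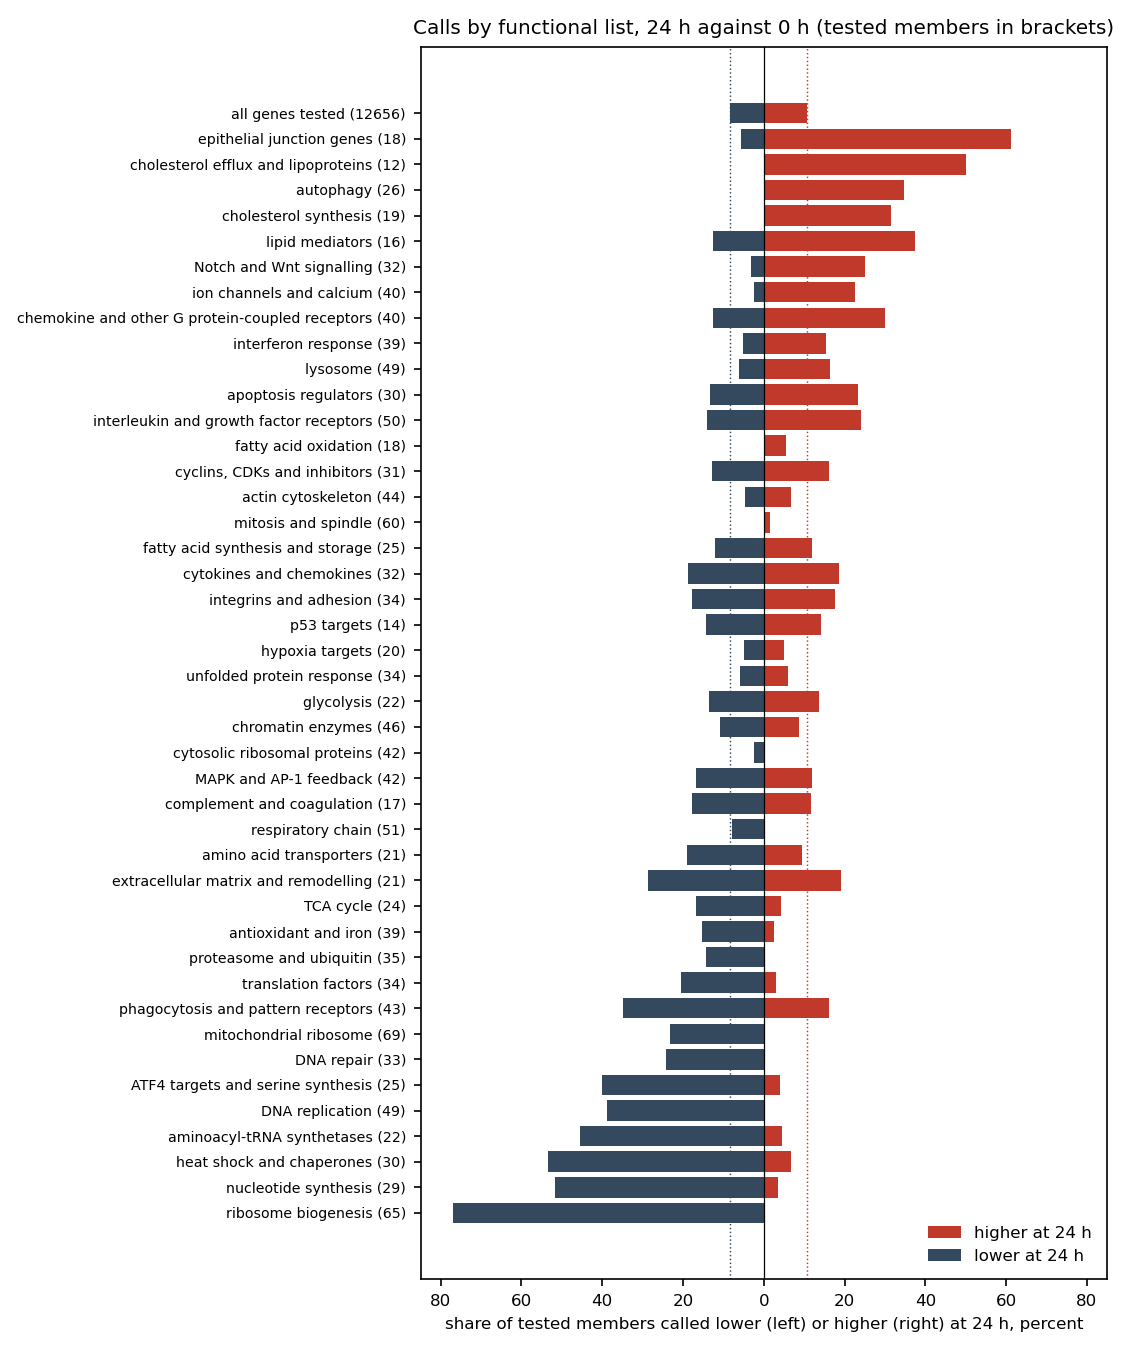
Share of the tested members of each of these 43 functional lists that was called lower (dark bars, left) or higher (red bars, right) at 24 h against 0 h, in percent, with the number tested in brackets. The top row gives all genes tested, and the dotted lines continue its 8.42% and 10.8%. Ribosome biogenesis stands at the bottom with 76.9% of its members lower, and epithelial junction genes have 61.1% higher.

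Most genes for making ribosomes fell. Of 65 tested ribosome biogenesis genes, which process ribosomal RNA and assemble the subunits in the nucleolus, 50 (76.9%) fell, none was called higher (limma; 58 were lower and 0 higher at an unadjusted p under 0.05), and the median difference was -1.63. It was -1.52 on the first 24 h array and -1.64 on the second. Without the first or second 24 h array 39 or 42 members fell, and without the first or second 0 h array 31 or 30. Nolc1, a nucleolar scaffold protein, stood at 8.49 and 8.51 at 24 h against 11.17 and 11.28 at 0 h, a difference of -2.73 (SE 0.16, limma adjusted p = 6.48e-05). Its arrays barely differed within a group. Srm, also in this list, fell by 3.31 as given above. Ftsj3, a ribosomal RNA methyltransferase, differed by -2.91 but lost its call without the first 24 h array or either 0 h array. Among members that did not pass were 2 of the most abundant nucleolar proteins, Ncl (difference -1.04, adjusted p = 0.0754) and Npm1 (-0.25, adjusted p = 0.356). Myc, the factor that drives many of these genes in other cells, was itself 9.16-fold lower, at 7.94 and 8.50 against 11.49 and 11.35. Whether Myc had a part in the fall of these genes was not tested.

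The sequence CACGTG, the E-box that MYC and MAX bind, read the same on both strands, was found in 8 of the 55 ribosome biogenesis promoters available (14.5%). It was in 14.2% of promoters of all genes that fell, 9.05% of those that rose, 9.93% of those tested and 7.24% of all RefSeq promoters. The share in the list was thus close to that of all genes that fell, and binding was not tested. Of the members that hold one, the 2 with the largest decreases were Utp20 and Utp18, parts of the complex that processes the small-subunit RNA, and their promoters are printed with the E-box in capitals (GRCm38.p6). Utp20 stood at 8.80 and 8.14 at 24 h against 10.21 and 10.25 at 0 h (difference -1.76, SE 0.26, limma adjusted p = 0.00324) and Utp18 at 9.32 and 9.46 against 11.20 and 10.98 (difference -1.70, SE 0.20, limma adjusted p = 0.00113). For both genes the 24 h arrays were below the 0 h arrays. Utp20 lies at chr10:88826765-88827064 and Utp18 at chr11:93885717-93886016, both on the minus strand. These 2 were chosen after their values were seen.
Utp20: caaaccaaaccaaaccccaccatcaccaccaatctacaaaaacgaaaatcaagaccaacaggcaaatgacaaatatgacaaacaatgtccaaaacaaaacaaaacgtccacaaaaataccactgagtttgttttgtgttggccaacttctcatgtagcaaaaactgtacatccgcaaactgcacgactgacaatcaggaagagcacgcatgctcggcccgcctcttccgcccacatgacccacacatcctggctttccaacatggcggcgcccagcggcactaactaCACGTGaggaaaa
Utp18: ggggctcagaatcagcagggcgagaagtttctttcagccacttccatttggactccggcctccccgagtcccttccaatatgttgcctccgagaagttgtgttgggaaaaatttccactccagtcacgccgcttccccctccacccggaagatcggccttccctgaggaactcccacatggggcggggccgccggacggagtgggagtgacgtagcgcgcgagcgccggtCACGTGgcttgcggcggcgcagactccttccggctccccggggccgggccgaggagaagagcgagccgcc

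The genes for ribosomal proteins themselves gave few calls. Of 42 tested genes for cytosolic ribosomal proteins 1 fell and none was called higher (limma; 1 was higher and 1 lower at an unadjusted p under 0.05), and their median difference was under 0.1 in size, on both 24 h arrays and with either scaling. Only 43 of the 76 listed had a probe set with a single symbol, and many of these genes have near-identical pseudogenes, so single members are uncertain. The member that fell, Rpl12, stood at 6.73 and 6.75 at 24 h against 8.10 and 8.29 at 0 h. Of 69 mitochondrial ribosome genes 16 fell (23.2%), or 38 (and 1 higher) with the replicate block, with a median of -0.71 that was -1.08 on the first 24 h array and -0.51 on the second. Only 3 were called without the first 24 h array, 13 without the second, and 3 and 1 without the first and second 0 h array. The fall was thus larger on the array of low 5′ signal, and 27 fell with the covariate for that signal. Mrps28, of the small mitochondrial subunit, kept its call and stood at 8.63 and 8.71 against 10.41 and 10.66.

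Many of the genes that make nucleotides fell as well. Nucleotide synthesis had 15 of 29 members lower (51.7%) and 1 higher, with a median of -1.05 and 10 to 14 lower when 1 array was left out. Ppat, the first enzyme of purine synthesis, stood at 8.78 and 8.49 at 24 h against 10.85 and 10.73 at 0 h, and Gart, which carries out later steps of that pathway, at 9.01 and 9.05 against 11.11 and 11.05. Both arrays of each group lay close together. Cad, the enzyme that starts pyrimidine synthesis, differed by -1.95 (SE 0.30, limma adjusted p = 0.00397), while Ctps2, one of the CTP synthases, rose by 0.87, a call lost without the second 0 h array.

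Of 25 ATF4 targets and serine synthesis genes, 10 fell (40%) and 1 rose, or 17 and 1 with the replicate block, with a median of -1.07. The count of lower members was 6 and 8 without the first and second 24 h array, and 5 and 2 without the first and second 0 h array. Its member Cth is described above, and Psph and Mthfd2, of serine and one-carbon metabolism, differed by -1.69 and -1.66 but were not called without the first 24 h array or either 0 h array. The riser was Ddit4, an inhibitor of the mTORC1 pathway, at 11.06 and 11.44 at 24 h against 9.66 and 9.57 at 0 h. Of 22 aminoacyl-tRNA synthetase genes, 10 fell (45.5%) and 1 rose, with 3 lower without the first 24 h array, 9 without the second, and 4 and 2 without the first and second 0 h array. Rars, for arginine, stood at 9.59 and 9.70 against 11.01 and 11, and Eef1e1, a scaffold of the synthetase complex, at 9.11 and 9.41 against 11.50 and 11.48. The riser Qars, for glutamine, differed by 0.87 and kept its call without the second 24 h array but not without any of the other 3. Translation factors had 7 of 34 lower (20.6%), or 11 with the block and 3 to 5 when 1 array was left out, and 1 higher. Eif2b3, a subunit of the exchange factor eIF2B, differed by -1.90 (SE 0.16, limma adjusted p = 2.57e-04), and Eef2k, the kinase that inhibits elongation factor 2, rose by 1.00, a call lost without the second 0 h array.

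Among chaperone genes more than the background share fell. Of 30 heat shock and chaperone genes 16 fell (53.3%) and 2 rose, with a median of -0.82 and 12 lower when either 24 h array was left out but 6 when either 0 h array was. Hspa9, the mitochondrial HSP70, stood at 10.08 and 10.12 at 24 h against 12.06 and 12.13 at 0 h, and Hspa1b, an inducible HSP70 whose copy Hspa1a is near-identical, at 6.42 and 6.50 against 8.59 and 8.27. Fkbp4, a cochaperone of HSP90, differed by -2.10 (SE 0.34, limma adjusted p = 0.00455). Called members included 5 subunits of the chaperonin that folds actin and tubulin, Cct3, Cct6a, Cct7, Cct8 and Tcp1, of which Cct8 fell by 1.40 and Cct7 by 0.84. The risers were Dnajb4, at 1.20, whose call was lost whichever array was left out, and Hspa4l, at 0.95, whose call was lost without the first 24 h or second 0 h array. Of 35 proteasome and ubiquitin genes 5 fell (14.3%), or 16 with the block. Without the first and second 24 h array 3 and 6 fell, without either 0 h array 1, and without the 3 arrays of low 5′ signal 18. The 5 included Psme3, an activator of the nuclear proteasome (-1.66), and Psmd7, of its cap (-2.24, lost without either 0 h array). The median was -1.03 on the first 24 h array and -0.53 on the second.

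Part of the DNA replication genes fell, while those of mitosis gave 1 call. Of 49 genes that load, fire or copy at replication origins, 19 fell (38.8%), or 32 with the block, and none was called higher (limma; 33 were lower and 0 higher at an unadjusted p under 0.05). The median was -0.87, with -0.83 on the first 24 h array and -0.84 on the second. Fewer were called without the second 24 h array, and far fewer without the first 24 h array or either 0 h array. With the covariate for 5′ signal 31 fell. Dut, which removes dUTP, stood at 10.97 and 11.43 at 24 h against 12.70 and 12.56 at 0 h. Orc1 and Pold2 differed by -1.75 and -1.68, and Orc1 was not called without the second 24 h or first 0 h array, nor Pold2 without the first 24 h or either 0 h array. Of 60 mitosis and spindle genes, in contrast, 1 was called higher and none lower (limma; 4 were higher and 8 lower at an unadjusted p under 0.05; 3 and 4 were called with the block), with a median of -0.18. That gene, Pttg1 or securin, differed by 0.79, was not called without the first 24 h array or either 0 h array, and had another probe set that pointed the other way. Of 33 DNA repair genes 8 fell (24.2%), the nuclease Exo1 by 1.48, and the count was 1 to 4 when 1 array was left out.

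Cyclins, kinases and inhibitors split into 5 higher and 4 lower of 31, or 8 and 7 with the block, and 2 to 5 higher and 4 lower when 1 array was left out. Ccng2, an unconventional cyclin that rises in resting cells, stood at 12.32 and 12.17 at 24 h against 9.84 and 9.80 at 0 h, and Cdkn1c, the CDK inhibitor p57, at 7.33 and 7.69 against 5.34 and 5.23. Cdk6, a G1 kinase, was at 11.17 and 11.15 against 12.68 and 12.75, the stress-induced Gadd45a was at least 3.60-fold lower, and its relative Gadd45g was 3.74-fold lower. No array of one group entered the range of the other for these 5. Rb1, the retinoblastoma protein, differed by 1.36 but was not called without the first 24 h array or either 0 h array.

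The list medians moved further from 0 at each time for some lists and not for others. For ribosome biogenesis the median differences from 0 h at 4, 8, 12 and 24 h were -0.33, -0.64, -0.89 and -1.63, and for nucleotide synthesis they were -0.18, -0.43, -0.58 and -1.05. DNA replication stood at 0.01, -0.25, -0.35 and -0.87 at the same times. Epithelial junction genes were at 0.11, 0.30, 0.70 and 1.34. Cholesterol synthesis genes were at -0.08, 0.71, 0.75 and 0.73, so their median at 24 h was that of 8 h. All these differences use the same 0 h arrays.

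**Figure D4:**
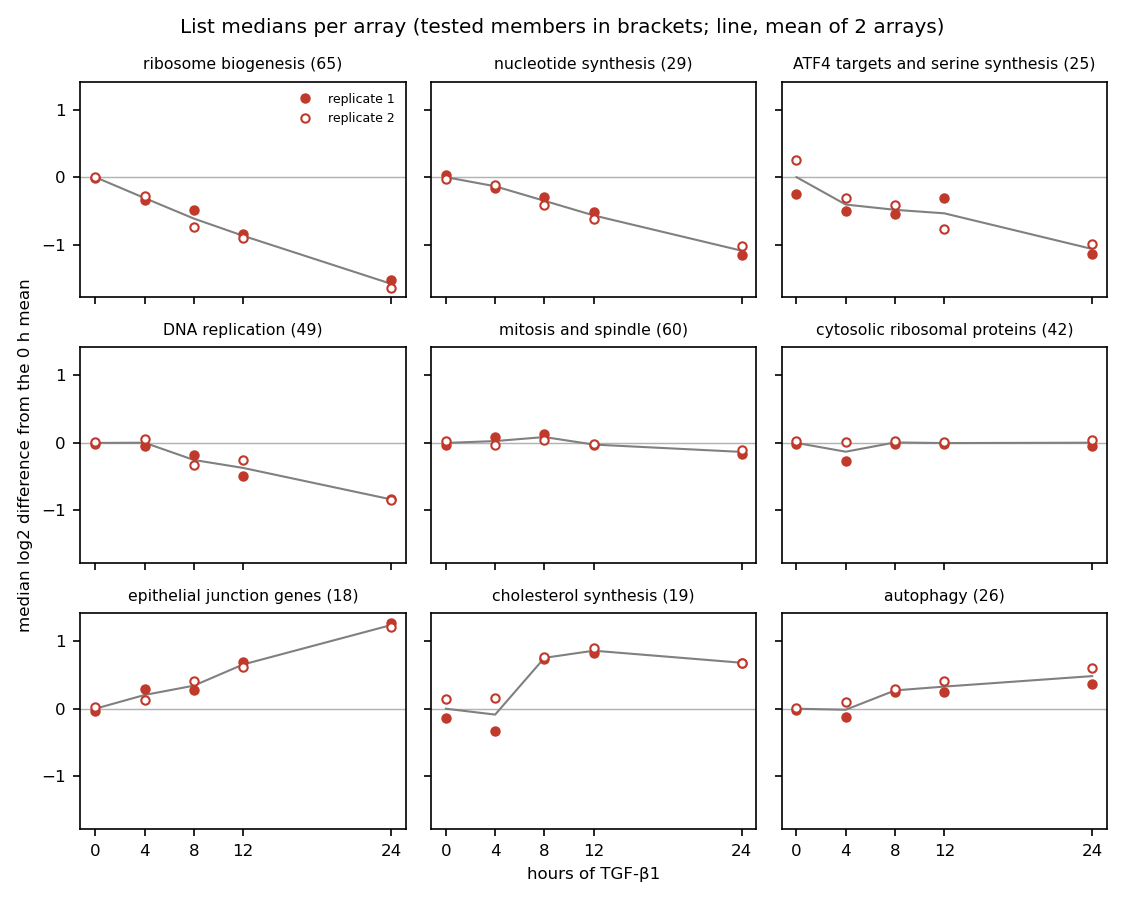
Median log2 difference from the 0 h mean over the tested members of 9 lists, for each array, against hours of TGF-β1, with 0 h untreated. Filled points are replicate 1, open points replicate 2, the line joins the means of both, and brackets give the number of members. Ribosome biogenesis reaches -1.52 and -1.64 on the 24 h arrays, whereas cytosolic ribosomal proteins stand at -0.04 and 0.05 there.

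Most tested genes of epithelial junctions rose. The list has 25 genes, of which 24 were measured and 18 exceeded 5 on at least 2 of the 10 arrays. Members under 5 at 0 h, such as Dsp and Cldn1, passed that filter only through treated arrays, so the share called depends on the filter. Of the 18 tested members 11 were higher at 24 h (61.1%) and 1, Gja1, lower. The median was 1.34, with 1.27 on the first 24 h array and 1.21 on the second. The count was 9 when either 24 h array was left out and 8 when either 0 h array was. Cdh1, the adhesion molecule E-cadherin that Langerhans cells carry, stood at 12.43 and 12.21 at 24 h against 6.05 and 5.38 at 0 h, 97.3-fold higher (SE 0.36 on the log2 scale, limma adjusted p = 5.50e-05). Cldn1, of tight junctions, was at 9.30 and 8.61 against 3.03 and 3.42 (at least 15.6-fold higher). Tjp1, the tight junction scaffold ZO-1, rose by 3.59, Spint1, an inhibitor of the membrane protease that St14 encodes, by 3.59 and St14 itself by 2.76. Jup, Krt18, Spint2, Ctnna1 and Ctnnd1 were also called higher, by 1.59, 1.73, 1.61, 1.10 and 0.92. Epcam, an adhesion molecule of epithelia and Langerhans cells, differed by 0.28 and was not called.

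Adhesion and matrix genes moved in both directions. Of 34 integrins and other adhesion genes 6 rose and 6 fell (17.6% each), or 11 and 8 with the block, and 3 to 5 rose and 4 to 6 fell when 1 array was left out. F11r, the junctional adhesion molecule A, stood at 10.82 and 11.43 at 24 h against 7.36 and 6.36 at 0 h (19.2-fold higher), and Itgb5, the integrin β5 chain, at 11.10 and 10.68 against 8.36 and 8.47 (5.55-fold higher). Icam2, a ligand of leukocyte integrins, was at 6.70 and 7.61 against 9.70 and 10.08 (6.66-fold lower). The groups were apart for all 3. Tspan32, a tetraspanin, was at least 5.28-fold lower, but its probe set of highest mean over the 10 arrays differed by -0.07. Of 21 matrix and remodelling genes 4 rose and 6 fell (19.0% and 28.6%), with 1 to 3 higher and 3 to 5 lower when 1 array was left out. Mmp14, a membrane-bound matrix metalloprotease, stood at 9.93 and 9.62 against 6.33 and 6.56 (10-fold higher), and Lox, which cross-links collagen, at 5.47 and 5.66 against 7.55 and 7.76 (4.25-fold lower).

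The actin list had 3 of 44 members higher (6.82%) and 2 lower, or 7 and 3 with the block, and 1 or 2 in each direction when 1 array was left out. Gsn, the actin-severing protein gelsolin, stood at 13.12 and 13.09 at 24 h against 11.67 and 11.31 at 0 h (3.06-fold higher), and Cnn3, the calponin that binds actin, at 9.63 and 8.95 against 11.68 and 11.83 (5.51-fold lower). The calls of Actn1 and Myh9, at 1.88 and 1.00, were lost whichever of the 4 arrays was left out.

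Some sterol genes rose on both the synthesis and the export side. Of 19 cholesterol synthesis genes 6 were higher (31.6%) and none lower (limma; 9 and 0 at an unadjusted p under 0.05), with a median of 0.73 that was 0.68 on each 24 h array. These calls were fragile, since far fewer were left whichever of the 4 arrays was left out. With the covariate for 5′ signal 10 were higher. Fdft1, the squalene synthase, stood at 11.24 and 10.75 at 24 h against 9.49 and 9.97 at 0 h, was not called without the first 24 h or first 0 h array, and 2 of its 3 other probe sets pointed down. Pmvk, the phosphomevalonate kinase, was at 9.86 and 10.14 against 8.61 and 9.16 and not called without the second 24 h or first 0 h array. Of 12 genes of cholesterol efflux and lipoproteins 6 rose (50.0%), with 3 to 5 when 1 array was left out. Abca1, which exports cholesterol to apolipoproteins, stood at 8.23 and 7.88 against 5.05 and 5.37 (7.21-fold higher), and Npc1, which moves it out of lysosomes, at 9.73 and 9.76 against 7.66 and 7.35 (4.72-fold higher). Abcg1, another exporter, was at 8.73 and 8.45 against 7.63 and 7.20, so for these 3 genes neither group reached into the other.

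Other lipid and energy genes were called in both directions. Among fatty acid synthesis and storage genes 3 of 25 rose and 3 fell (12.0% each), or 5 and 5 with the block, and 0 to 2 rose and 1 or 2 fell when 1 array was left out. The one whose call stood whichever array was left out was Lpl, described above. Srebf1, a master factor of lipid synthesis, differed by 1.11 and was not called without the first 24 h or first 0 h array. Fatty acid oxidation had 1 of 18 higher, Acadl, whose call was lost whichever array was left out, and none lower (limma; 6 and 0 at an unadjusted p under 0.05; 3 and 2 called with the block). Glycolysis had 3 of 22 in each direction (13.6% each), or 3 higher and 5 lower with the block, and 1 or 2 higher and 1 to 3 lower when 1 array was left out. Aldoc, an aldolase, stood at 10.73 and 11.69 at 24 h against 8.31 and 8.52 at 0 h (6.95-fold higher), and Slc16a1, the lactate carrier MCT1, at 9.34 and 9.64 against 12.32 and 12.01 (6.39-fold lower). The groups of both were far apart. Of 24 TCA cycle genes 4 fell (16.7%) and 1 rose, or 7 and 1 with the block, and 2 or 3 fell when 1 array was left out. Idh3a, a subunit of the NAD-dependent isocitrate dehydrogenase, stood at 9.90 and 9.93 against 11.55 and 11.52. Of 51 respiratory chain genes 4 fell (7.84%), or 10 with the block and 1 to 3 when 1 array was left out, among them Ndufab1 by 1.06. Amino acid transporters had 2 of 21 higher and 4 lower, or 4 and 6 with the block. Without the first 24 h array 1 was higher and 2 lower, without the second 1 and 1, and without either 0 h array none was called.

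Enzymes that make and break lipid mediators had 6 of 16 higher (37.5%) and 2 lower, with 4 or 5 higher and 0 or 1 lower when 1 array was left out. Mgll, which hydrolyses the endocannabinoid 2-arachidonoylglycerol, stood at 7.79 and 7.63 at 24 h against 5.09 and 4.78 at 0 h (6.85-fold higher), although 1 of its 3 other probe sets pointed down. Hpgds, the haematopoietic prostaglandin D synthase, was at 8.11 and 9.10 against 5.97 and 5.80 (6.57-fold higher), and Lpcat2, which makes platelet-activating factor, at 9.73 and 10.31 against 7.76 and 7.46 (5.32-fold higher). All 3 had both treated arrays above both untreated ones. Pla2g4a, the phospholipase that releases arachidonic acid, was at 9.17 and 8.88 against 10.25 and 10.36 (2.43-fold lower) and not called without the second 0 h array.

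Surface receptors changed in both directions, more of them upward. Of 40 chemokine and other G protein-coupled receptors 12 rose (30.0%) and 5 fell, or 14 and 9 with the block, with 7 to 11 higher and 3 or 4 lower when 1 array was left out. Ccr6, the receptor for Ccl20 that brings Langerhans cell precursors to epithelia, stood at 9.53 and 10.79 at 24 h against 5.41 and 5.88 at 0 h (22.9-fold higher). Gpr34, a receptor for lysophosphatidylserine, was at least 2.43-fold higher and Gpr35 4.70-fold higher. Ptger2, a receptor for prostaglandin E2, was at 5.87 and 6.20 against 7.82 and 8.29 (4.05-fold lower). No array of one group entered the range of the other for these genes.

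Interleukin and growth factor receptors had 12 of 50 higher (24.0%) and 7 lower (14%), with 5 to 10 higher and 4 to 6 lower when 1 array was left out. Il7r, the chain that binds IL-7 and TSLP, stood at 10.77 and 9.93 at 24 h against 7.51 and 6.83 at 0 h (9.07-fold higher), and Il13ra1, which IL-4 and IL-13 share, at 9.25 and 9.08 against 7.16 and 6.52 (5.01-fold higher). Cd40, which receives T cell help, was at 8.78 and 8.20 against 6.23 and 6.07 (5.06-fold higher). Tnfrsf21, a death receptor, was at 5.26 and 5.22 against 8.15 and 8.03 (7.20-fold lower). The range of the treated arrays lay apart from that of the untreated arrays in each case. Met, the receptor of hepatocyte growth factor, and Il12rb1, a chain of the IL-12 receptor, were 6.12-fold and 3.22-fold lower.

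Of 32 cytokine and chemokine genes 6 rose and 6 fell (18.8% each), or 6 and 10 with the block, and 4 or 5 rose and 2 to 5 fell when 1 array was left out. Ltb, the lymphotoxin β chain, stood at 10.18 and 11.49 at 24 h against 8.19 and 8.30 at 0 h (6.03-fold higher), and Pdgfb, a platelet-derived growth factor, at 7.61 and 8.62 against 5.67 and 5.54 (5.69-fold higher). Il6 was at 5.90 and 5.43 against 2.76 and 2.85, so even the treated arrays were close to 5 and the fold is at least 1.59. Ccl9 was at 8.34 and 8.12 against 10.62 and 10.64 (5.28-fold lower) and Ccl3, a chemokine of inflammation, at least 6.97-fold lower. Both chemokines had all untreated arrays above the treated ones. Il12a, the p35 chain of IL-12, was at 5.12 and 6.71 against 8.67 and 9.37 and lost its call without the first 24 h array or either 0 h array.

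Of 40 ion channel and calcium genes 9 rose (22.5%) and 1 fell, or 14 and 3 with the block, and 4 to 7 were higher when 1 array was left out. Itpr2, a receptor that releases calcium from the endoplasmic reticulum, stood at 8.94 and 8.45 at 24 h against 6.39 and 6.28 at 0 h (5.14-fold higher), with 4 of its 5 other probe sets pointing the same way. P2rx7, the ATP-gated channel of inflammasome activation, was at 6.32 and 6.90 against 8.30 and 8.30 (3.24-fold lower). The treated arrays lay above the untreated ones for Itpr2 and below them for P2rx7. Of 32 Notch and Wnt genes 8 rose (25.0%) and 1 fell, or 11 and 2 with the block, with 4 to 7 higher when 1 array was left out. Fzd7, a Wnt receptor, stood at 10.36 and 10.72 against 7.87 and 7.95 (6.18-fold higher), and Rnf43, a ligase that removes such receptors, at 5.78 and 5.85 against 4.13 and 4.31 (at least 1.77-fold higher). Dtx1, a Notch target, rose by 1.78 by the probe set used and not by its other probe set, while Notch1 differed by -0.78 and lost its call whichever array was left out.

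Receptors for microbes and for uptake moved in both directions, more of them down. Of 43 phagocytosis and pattern receptor genes 15 fell (34.9%) and 7 rose (16.3%), with 7 to 13 lower and 5 to 7 higher when 1 array was left out. Clec7a, the β-glucan receptor Dectin-1, stood at 5.59 and 6.48 at 24 h against 8.88 and 8.87 at 0 h (7.14-fold lower), and Clec4d, a lectin that pairs with Clec4e, at 7.07 and 5.93 against 9.56 and 9.38 (7.85-fold lower, not called without the first 0 h array). With Clec4e, these 3 lectins of myeloid cells were all lower on both treated arrays. Axl, a receptor for the uptake of dying cells that TGF-β1 is known to raise in Langerhans cells, was at 7.64 and 9.33 against 5.09 and 3.98 (15.5-fold higher). Havcr2, which binds phosphatidylserine, was at 8.45 and 8.50 against 6.34 and 5.87 (5.17-fold higher). The Axl arrays were spread within each group, but the groups did not overlap for either gene.

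The lysosome list had 8 of 49 higher (16.3%) and 3 lower, with 2 to 7 higher and 0 to 2 lower when 1 array was left out. Ctsh, the protease cathepsin H, stood at 12.51 and 12.88 at 24 h against 11.41 and 11.25 at 0 h, and Scarb2, a lysosomal membrane protein, at 10.99 and 10.84 against 9.61 and 9.74. Their treated arrays were above the untreated ones. Of 26 autophagy genes 9 rose (34.6%) and none fell (limma; 12 and 1 at an unadjusted p under 0.05), with a median of 0.46. Far fewer were called whichever of the 4 arrays was left out, and 11 rose with the covariate for 5′ signal. Map1lc3a, which coats autophagosomes, stood at 10.89 and 10.12 against 8.14 and 8.07 (5.28-fold higher), and Atg16l2, of the machinery that attaches such coats, at 8.56 and 8.14 against 6.84 and 6.95 (2.74-fold higher). The range of 24 h values lay above that of 0 h values for both.

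Interferon response genes had 6 of 39 higher (15.4%) and 2 lower, or 13 and 2 with the block, and 1 to 4 higher and 0 or 1 lower when 1 array was left out. Parp14, a mono-ADP-ribosyltransferase, stood at 9.90 and 9.51 at 24 h against 8.36 and 8.31 at 0 h (2.58-fold higher). Stat2, a transducer of interferon signals, was at 7.22 and 8.37 against 6.10 and 6.23 and not called without the second 24 h array or either 0 h array. Complement and coagulation genes had 2 of 17 higher and 3 lower, or 3 and 6 with the block, and 1 or 2 higher and 3 or 4 lower when 1 array was left out, with Anxa4, a membrane-binding annexin, at 9.72 and 9.49 against 7.90 and 7.68 and its relative Anxa3 at 7.32 and 7.21 against 9.50 and 9.82. These annexins thus moved in opposite directions on both treated arrays.

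Apoptosis regulators and p53 targets were called in both directions. Of 30 apoptosis regulators 7 rose (23.3%) and 4 fell (13.3%), but 1 or 2 rose and 1 to 3 fell when 1 array was left out. Bmf, a BH3-only activator of cell death, stood at 9.89 and 9.87 at 24 h against 6.43 and 5.88 at 0 h (13.2-fold higher), although its other probe set pointed down. Pmaip1, the BH3-only protein Noxa, was at 9.80 and 10.37 against 11.41 and 11.29 (2.41-fold lower). Of 14 p53 targets 2 rose and 2 fell (14.3% each), and 1 rose and 2 fell whichever array was left out. Trp53inp1, which p53 induces and which also acts in autophagy, was at 11.36 and 11.13 against 8.10 and 8.03 (9.09-fold higher), and the nuclease Aen at 8.01 and 7.63 against 9.57 and 9.36 (3.13-fold lower). Neither group reached into the other for these genes.

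Of 34 unfolded protein response genes 2 rose and 2 fell (5.88% each, under the shares of all genes tested), or 3 and 5 with the block. None was called without the first 24 h array or either 0 h array, and 2 rose without the second 24 h array. Of 20 hypoxia targets 1 rose, Ddit4, and 1 fell (5% each, likewise under those shares). The gene that fell, by 1.29, was Ero1a, an oxidase of the endoplasmic reticulum, and its call was lost whichever array was left out. Antioxidant and iron genes had 6 of 39 lower (15.4%) and 1 higher, or 8 and 2 with the block, and 3 to 5 lower when 1 array was left out. Txnrd1, the thioredoxin reductase of the cytosol, stood at 9.04 and 9.08 at 24 h against 11.24 and 11.20 at 0 h (4.48-fold lower), and Gsr, the glutathione reductase, at 8.89 and 8.34 against 10.06 and 10.17 (2.82-fold lower). Both were lower on each treated array than on each untreated one. The MAPK and AP-1 feedback list had 5 of 42 higher (11.9%) and 7 lower (16.7%), with 2 to 5 higher and 1 to 4 lower when 1 array was left out and 12 lower without the 3 arrays of low 5′ signal. Nfkbie, an inhibitor of NF-κB, was at 10.33 and 9.60 against 7.86 and 7.69 (4.56-fold higher), and the MAP kinase phosphatase Dusp2 at 7.58 and 7.31 against 8.77 and 8.76 (2.50-fold lower). Chromatin enzymes had 4 of 46 higher and 5 lower, or 12 and 7 with the block, and 0 to 4 higher and 1 or 2 lower when 1 array was left out. Among them the histone methyltransferase Suv39h2 was at 5.94 and 5.79 against 7.75 and 7.55 (3.44-fold lower), but its probe set of highest mean over the 10 arrays differed by -0.87 and was not called (limma adjusted p = 0.112).

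Few genes were called between 12 and 24 h, which with 2 arrays a group does not show that the response was complete by 12 h. Against 0 h, 910 of the 1370 higher and 861 of the 1066 lower genes were called at no earlier time. They were chosen by their 24 h values, which favours such a count. Against 12 h, limma called 9 genes higher at 24 h (0.0711% of those tested) and none lower. At an unadjusted p under 0.05 there were 1238 (9.78%), 615 higher and 623 lower. The 9 calls rest on few arrays, since 0 were left whichever of the 4 arrays compared was left out, and there were 308 with the replicate block. Qpct stood at 9.04 and 9.47 at 24 h and at 6.06 and 6.71 at 12 h, B3galnt1, a β-1,3-N-acetylgalactosaminyltransferase, at 7.77 and 7.56 against 4.63 and 5.09, and Gna14 at 10.25 and 10.74 against 7.49 and 7.98. Each of these rose between 12 and 24 h by more than it spread at either time. Ifnlr1, the receptor chain for interferon λ, stood at 10.02 and 10.08 at 24 h, 8.14 and 8.37 at 12 h and 5.15 and 5.56 at 0 h, so it climbed through both intervals.

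A different course was seen for 3 of the 9. Kit, the receptor for stem cell factor, was at 8.97 and 8.72 at 24 h, against 6.58 and 5.78 at 12 h and 7.43 and 7.08 at 0 h. At 4, 8, 12 and 24 h its differences from 0 h were -1.21, -1.48, -1.07 and 1.59, so it lay below the untreated level at the early times and above it at 24 h. Xaf1, a protein induced by interferon that binds the apoptosis inhibitor XIAP, stood at 8.91 and 8.75 at 24 h, against 7.22 and 7.11 at 12 h and 7.85 and 7.97 at 0 h. Alox5, the 5-lipoxygenase that starts leukotriene synthesis, was at 7.43 and 7.33 at 24 h, 5.77 and 5.97 at 12 h and 5.98 and 5.94 at 0 h, a rise confined to the last interval on these arrays. Cldn1 and Plxdc1, a receptor-like membrane protein, complete the 9. Kit, Cldn1 and Plxdc1 fall outside the naming rule for this interval and are named after their values were seen, and the call of Xaf1 against 0 h was lost without the first 24 h array or either 0 h array. Limma's adjusted p against 12 h was 0.0220 for Qpct, B3galnt1, Gna14, Ifnlr1, Alox5 and Cldn1, 0.0338 for Xaf1, 0.0380 for Kit and 0.0463 for Plxdc1.

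**Figure D5:**
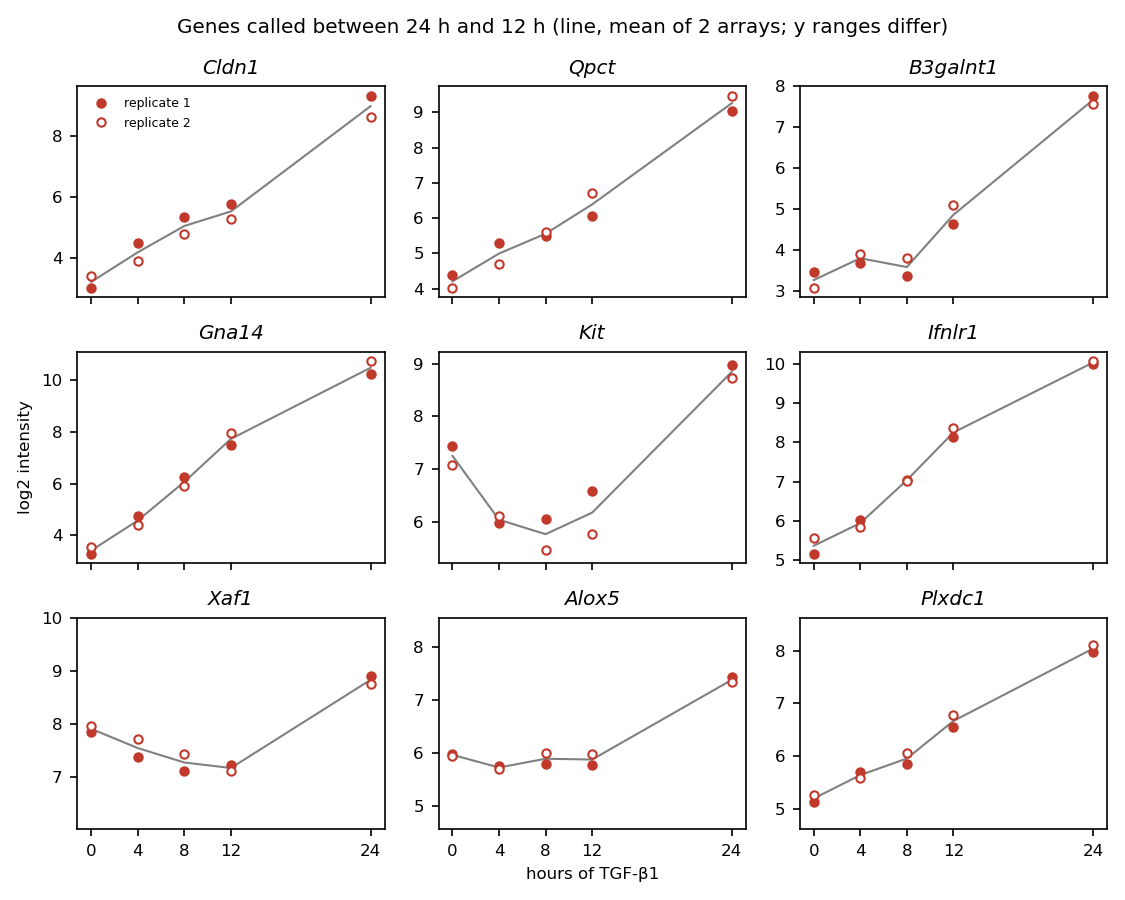
Log2 intensity against hours of TGF-β1 (0 h untreated) for the 9 genes called between 24 h and 12 h, with replicate 1 filled, replicate 2 open and a line through the means. The vertical ranges differ between panels. Kit and Xaf1 lie under their 0 h values from 4 to 12 h and above them at 24 h, and Alox5 stays near its 0 h value until 12 h.

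The late response was also set beside dendritic cells measured on other arrays of the series. The cDC, pDC and CDP arrays were labelled with another kit and share no array with the TGF-β1 series, so the calls come from separate arrays of 2 per group. Of the 1130 genes higher at 24 h that were tested in both fits, 535 (47.3%) were higher and 90 (7.96%) lower in cDC than in CDP, against 18.4% and 29.7% of all 8765 genes tested in both. For pDC 554 of the same genes (49.0%) were higher and 116 (10.3%) lower, against 21.5% and 31.9%. Of the 976 genes lower at 24 h, 43 (4.41%) were higher and 715 (73.3%) lower in cDC, and 41 (4.20%) were higher and 718 (73.6%) lower in pDC. The shares were thus close to each other for both cell types, and whether they differ was not tested.

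Single genes among the largest changes differed between the cell types on those arrays. Hepacam2 was higher in cDC than in CDP by 7.02 (limma adjusted p = 1.37e-04), while its difference in pDC was -0.01 (adjusted p = 0.992). Rilpl1 was higher in pDC by 6.18 (adjusted p = 1.59e-04), with a difference of 1.43 in cDC (adjusted p = 0.0589). Prkcb was higher in both, by 5.44 in cDC and 5.46 in pDC, and Bcat1 differed by -6.26 in both. Low values share a floor on those arrays, so these differences start from the floor where a gene was not measurable. Of the 14 largest increases, 8 were not tested there because they exceeded the level of 5 on fewer than 2 of the 8 arrays, among them Gna14, Capn3, Chad and Dsp.

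Regulators and standard markers were only counted, with no gene of their lists chosen for its value except where named. Called higher and lower were 10 and 1 of 18 cDC markers, 4 and 1 of 17 pDC markers, 4 and 0 of 7 Langerhans cell markers, 12 and 0 of 13 MHC class II presentation genes, 7 and 0 of 12 maturation and costimulation genes, 17 and 9 of 41 regulators, and 2 and 4 of 14 stem and progenitor genes. When 1 array was left out, 5 to 7 cDC markers, 1 to 3 pDC markers, 7 to 11 MHC class II genes, 4 to 6 maturation genes and 0 to 2 progenitor genes were higher, while 9 to 13 regulators were higher and 4 to 6 lower. The count of Langerhans markers was 4 whichever array was left out. The 4 Langerhans markers were Axl, Runx3, Cdh1 and Cldn1, of which Cdh1 and Cldn1 are also in the junction list. The sum of linear levels of the Langerhans list was 12919 and 12446 at 24 h against 2009 and 1943 at 0 h. On the separate arrays Cdh1 was higher than in CDP by 4.23 in cDC and 7.80 in pDC. Cldn1 was higher by 4.27 in cDC and differed by 0 in pDC. High levels of these genes were thus not particular to Langerhans cells. Markers of other cells that a bone marrow culture can hold moved too. Of 14 tested granulocyte markers 3 fell, or 5 with the block and 1 or 2 when 1 array was left out, and none was called higher (limma; 6 fell and 0 rose at an unadjusted p under 0.05), and the summed linear level of the 16 measured ones was 3301 and 8605 at 24 h against 12583 and 14855 at 0 h. Ctsg, a neutrophil protease, was 20.8-fold lower at 24 h. Of 10 monocyte and macrophage markers 2 fell, Lyz1 and Lyz2, which share sequence, or 4 with the block, and 1 rose, Csf1r, a call lost without the first 24 h array or either 0 h array. The summed linear levels of these markers were 19973 and 16643 at 24 h against 28405 and 22792 at 0 h. Hp, Slpi and Clec4e, which these cells also express, fell along with them, and the part of such cells in the result was not tested.

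The only tested eosinophil marker and some megakaryocyte markers rose. That eosinophil marker, Siglecf, rose by 3.78, with sums of 3089 and 3712 over 5 measured markers at 24 h against 425 and 215 at 0 h. Only 1 of the 5 exceeded 5 on at least 2 of the 4 arrays, so the sum says little about the others. Of 8 megakaryocyte markers 2 rose, Vwf and F2r, with sums of 2190 and 1641 against 609 and 666, while the defining platelet genes Pf4, Gp9 and Itga2b differed by -0.26, 0.20 and -0.12 and were not called. Of 6 mast cell and basophil markers Gata2 and Kit rose (sums of 928 and 921 against 538 and 536) and the basophil protease Mcpt8 was not called. Erythroid markers had 1 of 5 higher, Ermap, and 1 lower, Tfrc (sums of 2795 and 1888 against 5091 and 4557). B cell markers had 1 of 5 lower, Cd22 (sums of 698 and 947 against 1231 and 1179), and none of 5 T and NK cell markers was called (0 at an unadjusted p under 0.05; sums of 275 and 329 against 266 and 274). The part of these cells in the changes was not tested either.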

How the data were processed

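RNA of 20 mouse cell samples was measured on Affymetrix mouse arrays, 10 of them in the TGF-β1 time series, from 250 ng RNA each per the labels' protocols. The deposited table holds log2 values made by the authors, and the submitters' processing notes name GCRMA, without version or settings. Of 45101 probe sets, 34958 had 1 gene symbol in the platform annotation (2016), 932 several and 9211 none, and the probe set with the highest mean over all arrays stood for each of 18194 genes. Genes above 5 on at least 2 of the 10 arrays (12656) were fitted with limma 3.58.1 (R 4.3.3; lmFit and eBayes, no block) on these log2 values, which the authors had normalized. A gene was called at a Benjamini-Hochberg adjusted p under 0.05 with no overlap of the arrays compared. If neither array of the lower group reached 5, the fold was taken against 5 and is written as "at least". Where the arrays of the lower group lay on both sides of 5, as for Axl, Camk2n1 and Tctex1d1 among others, the fold uses both values as measured and is less certain. The fit was tested once on simulated data, with 200 of 12656 genes changed, far fewer than were called here. The simulated arrays were drawn independently, with no shared replicate effect and no array of low 5′ signal, unlike these data. The recovery and false calls may therefore differ here. On the simulated data the fit called 28 of 100 genes changed by 1 log2 unit and 90 of 100 changed by 2, with 12 false calls. A gene not called may therefore still have changed 2-fold.

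Array deviations from group means correlated between same-numbered replicates of all 10 pairs of groups (r from 0.27 to 0.85). The lowest r, 0.27, was that of 24 h and 0 h. The highest, 0.67 to 0.85, were among the 4, 12 and 24 h groups, whose replicate 1 arrays had low 5′ signal. The main fit has no block, and counts with the replicate number as a block are given where they differ by over 1.5 times. cDC and pDC were set against CDP in a separate fit of 8 arrays. Named genes were the 14 largest increases and decreases outside regulator and marker lists, up to 3 called members per functional list and direction, and the 6 largest changes in each direction between 12 and 24 h that were also called against 0 h. The 59 lists (1914 genes, 1751 measured) and the comparison itself were chosen with earlier results of these data known. Of these lists 1 is not reported here. The number of arrays limits the precision. Alternatives changed the scaling, the filter on low values, the probe set, the arrays fitted, the block, the array weights, the variance trend and a covariate for 5′ signal.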

Additional observations from a re-analysis of the deposited data

How the results depend on the processing

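At 24 h against 0 h, 2436 genes were called. Centring each array gave 2443 calls, of which 2381 were among the 2436, and quantile normalization 2353, of which 2284 were. The replicate block gave 3793 calls (1749 lower), a covariate for the 3′ to 5′ difference of Gapdh 1709 lower calls, and leaving out the 3 arrays of low 5′ signal 3970 calls (2080 higher, 1890 lower). Both the block and the covariate kept all 2436. The setting without the 3 arrays leaves 1 array at 24 h, so both replicates could not be asked to agree there. Leaving out 1 of the 4 arrays gave 936 to 1724 calls, 560 to 995 higher and 376 to 729 lower, which also have fewer arrays. Over all alternatives the share of higher calls ran from 52.4% to 60.7%.

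At 24 h against 12 h the 9 calls were 15 with centring, 16 with quantile normalization (15 higher, 1 lower), 24 without a filter on low values and 24 with the probe set of highest mean over the 10 arrays (21 higher, 3 lower each). They were 25 with a variance trend, 308 with the replicate block (204 higher, 104 lower), 585 with the covariate (335 higher, 250 lower), 111 without the 3 arrays of low 5′ signal (76 higher, 35 lower), and 0 with only the 4 arrays compared or with any 1 of them left out (0 to 0). The cause was not tested.

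Of the 209 genes named by the rule, none reversed under any alternative run. The block, the covariate and array weights ended no call, and leaving out 1 array ended 40 to 81. The cDC and pDC comparisons kept their counts within 1.5 times under centring, the block and the loss of 1 array, alternatives chosen after seeing the data. No untreated culture of 24 h was analysed here, and values under 5 have no firm order.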

Other observations

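Gene families were read after the data had been seen, so their counts carry no test, and they are read against 10.8% higher and 8.42% lower among all genes tested. Of 53 glycosyltransferase genes 9 were called higher and 4 lower. St8sia1, the GD3 synthase that adds a second sialic acid to gangliosides, stood at 11.51 and 11.17 at 24 h, against 7.09 and 6.65 at 0 h. Of the other α-2,8-sialyltransferases tested, St8sia6 rose, and St8sia2, St8sia3, St8sia4 and St8sia5 were not called, with differences of -0.10, -0.07, -0.26 and 0.04. Of 56 Rab GTPases and their linkers 10 were higher and 4 lower, among them Rab38, of melanosomes and related organelles, which rose by 4.21, and Rab6b, of Golgi traffic, which was at least 3.47-fold higher.

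Of 25 heterotrimeric G protein subunits 4 were higher and 2 lower, with Gna14 in front. Of 8 protein kinase C genes 2 were higher and 0 lower, Prkcb and Prkch, and Prkch rose by 2.64. In the network of MYC, MAX and MXD genes, whose MXD members compete with MYC for MAX, 3 of 12 were higher and 1 lower. Mxd4 rose by 4.03, Mycl by 1.82 and Mxd1 by 1.20, while Myc fell by 3.20. Across the array, other probe sets of called genes pointed the same way in 1927 of 2166 cases (89.0%), against 5140 of 7820 (65.7%) for genes that were not called.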
